A study of Homo sapiens with 4 samples.

Results

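INHBA, IGFBP3, CEMIP, HAPLN1, CDCP1, FERMT1, AKAP12, SLC20A1, SYTL5 and TGFA are 10 of the 46416 entries of a gene count table from A375 human melanoma cells. They were selected by symbol because their counts are much lower with the BRAF inhibitor encorafenib, so the drug ratios below describe the choice and test nothing. A375 is a BRAF-mutated melanoma line, studied here as a line resistant to encorafenib, A375-R, and as the sensitive line, A375-S. Each line was given 10 nM encorafenib for 48 h or left untreated, with 1 library in each of the 4 groups. The labels do not say how A375-R was derived or whether it is a clone. Without replicates, no difference has a replicate check and no p-value is given, and a ratio compares 2 libraries rather than 2 conditions.

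As a group the genes were chosen as secreted and surface genes, and by textbook knowledge 7 of the 10 encode such proteins. INHBA, IGFBP3, CEMIP and HAPLN1 encode secreted proteins, and TGFA, CDCP1 and SLC20A1 encode membrane proteins, the first of which is shed as a ligand. FERMT1, AKAP12 and SYTL5 encode proteins of the cell interior that bind the inner face of the membrane or of vesicles. Mutant BRAF drives MEK and ERK constantly, and ERK in turn activates transcription factors of the AP-1 and ETS families. Many genes of growth factor signalling and of the cell surface lie downstream of that cascade in melanoma cells. Encorafenib binds the mutant kinase and stops its signal.

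The libraries, made with a small RNA kit, held 20507667 to 33664470 gene counts each, of which protein-coding entries took 0.845% to 1.497%. In counts that is 307026 protein-coding counts in treated and 326919 in untreated A375-R cells, and 215894 in treated and 435351 in untreated A375-S cells. Counts are given as deposited, and ratios use counts divided by a relative scaling of 0.994 for treated and 1.02 for untreated A375-R, and of 0.706 for treated and 1.39 for untreated A375-S. A count of 0 allows up to 3 counts, which is 3.02, 2.93, 4.25 and 2.15 scaled counts in the same order of libraries. The melanocyte-lineage factor SOX10 had 86 counts in treated and 94 in untreated A375-R cells, and 73 in treated and 157 in untreated A375-S cells. Of 11 melanoma and melanocyte markers 7 were tested, and their levels moved with the drug in both directions. DCT, a pigment enzyme, had 145 counts in treated and 1 in untreated A375-R cells, and 332 in treated and 0 in untreated A375-S cells. The proteoglycan gene CSPG4 had 28 in treated and 110 in untreated A375-R cells, and 5 in treated and 183 in untreated A375-S cells. Its log2 ratio was -1.91 (-2.59 to -1.32) in A375-R and -4.12 (-5.85 to -2.96) in A375-S. S100B had 134 in treated and 49 in untreated A375-R cells, and 63 in treated and 53 in untreated A375-S cells. After scaling, its log2 ratio was 1.48 (1.01 to 2.00) in A375-R and 1.22 (0.68 to 1.79) in A375-S. The pigment cell factor MITF had 59 in treated and 19 in untreated A375-R cells, and 45 in treated and 31 in untreated A375-S cells. Its log2 ratio was 1.65 (0.91 to 2.50) in A375-R and 1.50 (0.83 to 2.23) in A375-S. The defining markers MLANA and TYR had 0 counts in every library, and PMEL and TYRP1 at most 1. The scaled sum of the list was 621 in treated and 463 in untreated A375-R cells, and 932 in treated and 459 in untreated A375-S cells. Most of the rise of this sum with the drug came from DCT in each line. The part of these markers in the results below was not tested. Of markers of other cell types, 0 of 10 fibroblast and 0 of 6 endothelial genes reached 10 counts in any library, against 1 of 10 keratinocyte genes (KRT10) and 3 of 10 immune genes (CD68, HLA-DRA and LYZ). The scaled sum of the immune list was 328 in treated and 233 in untreated A375-R cells, and 285 in treated and 177 in untreated A375-S cells, mostly from HLA-DRA, while CD3D, CD3E, CD14, MS4A1 and ITGAM had 0 counts in every library and PTPRC had at most 1. In such bulk libraries, fewer cells that express a gene and less of its RNA per cell cannot be told apart.

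The 250 bases before the transcription start are shown for 5 of the genes, because they run from CpG-free to CpG-rich and include the TATA, AP-1 and CArG matches given with the promoter results. RefSeq sequences on GRCh38.p14 were matched for 9 of the 10 genes, with 13 start sites in all, and FERMT1 was not matched. Each sequence reads 5′ to 3′ on the gene's own strand and ends at the base before the start. Capitals mark matches, on either strand, to 8 motifs. These were the AP-1 site TGANTCA, the cyclic AMP element TGACGTCA, the ETS core CCGGAA, the TATA box TATAAA, the GC box GGGCGG, the E-box CACGTG, the TEAD site GGAATG and the CArG box, which SRF binds. No match overlapped another in these windows.
INHBA, chr7:41703091-41703340, minus strand: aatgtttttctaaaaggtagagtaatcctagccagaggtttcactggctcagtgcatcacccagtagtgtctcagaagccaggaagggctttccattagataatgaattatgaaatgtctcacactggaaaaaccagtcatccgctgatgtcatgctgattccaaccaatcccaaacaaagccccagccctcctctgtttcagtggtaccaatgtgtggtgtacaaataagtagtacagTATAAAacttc
CEMIP, chr15:80779120-80779369, plus strand: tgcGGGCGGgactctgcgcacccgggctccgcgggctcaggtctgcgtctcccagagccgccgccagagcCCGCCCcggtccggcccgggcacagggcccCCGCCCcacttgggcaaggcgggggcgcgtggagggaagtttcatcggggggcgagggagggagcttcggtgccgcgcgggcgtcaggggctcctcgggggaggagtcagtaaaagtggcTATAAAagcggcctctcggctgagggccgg
IGFBP3, chr7:45921273-45921522, minus strand: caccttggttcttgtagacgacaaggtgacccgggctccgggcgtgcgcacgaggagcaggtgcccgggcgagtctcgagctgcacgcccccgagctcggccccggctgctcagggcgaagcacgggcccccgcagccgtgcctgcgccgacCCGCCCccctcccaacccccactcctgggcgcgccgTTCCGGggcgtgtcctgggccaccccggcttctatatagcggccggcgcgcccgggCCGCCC
AKAP12, first of 3 starts, chr6:151239717-151239966, plus strand: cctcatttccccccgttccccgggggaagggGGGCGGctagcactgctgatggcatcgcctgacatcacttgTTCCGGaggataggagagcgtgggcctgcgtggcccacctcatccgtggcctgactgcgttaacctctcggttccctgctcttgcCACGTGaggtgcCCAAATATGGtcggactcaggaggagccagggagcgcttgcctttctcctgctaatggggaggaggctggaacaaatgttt
SYTL5, first of 2 starts, chrX:38006303-38006552, plus strand: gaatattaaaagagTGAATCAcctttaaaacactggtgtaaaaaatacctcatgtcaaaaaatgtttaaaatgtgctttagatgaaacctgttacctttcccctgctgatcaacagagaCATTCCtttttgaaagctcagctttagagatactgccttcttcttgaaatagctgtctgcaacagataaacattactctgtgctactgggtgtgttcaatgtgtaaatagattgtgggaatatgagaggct

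INHBA encodes the activin beta-A chain, whose dimer, activin A, is a secreted ligand of the TGF-beta family. It had 45 counts in treated and 1311 in untreated A375-R cells, and 27 in treated and 1773 in untreated A375-S cells. Both treated libraries were far below both untreated ones. The log2 ratio of A375-R over A375-S was 0.24 in treated cells (95% counting interval -0.48 to 0.99) and 0.01 in untreated ones (-0.09 to 0.11). The log2 ratio of encorafenib over untreated was -4.81 in A375-R (95% counting interval -5.29 to -4.40) and -5.04 in A375-S (-5.66 to -4.51). With 9 other genes at much lower counts, INHBA alone took 26.9% of the summed counts of the 10 genes in treated and 45.6% in untreated A375-R cells, and 20.8% in treated and 45.1% in untreated A375-S cells.

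TGFA, transforming growth factor alpha, is a ligand of the EGF receptor made as a membrane precursor. It had 18 counts in treated and 182 in untreated A375-R cells, and 3 in treated and 168 in untreated A375-S cells. The treated libraries were the lower ones in both lines, and the treated A375-R library kept more counts than the treated A375-S library. The log2 drug ratio was -3.26 (-4.08 to -2.60) in A375-R and -4.67 (-7.12 to -3.25) in A375-S, 2 intervals that overlap.

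IGFBP3 encodes a secreted protein that binds insulin-like growth factors and holds them from their receptor. It had 2 counts in treated and 99 in untreated A375-R cells, and 0 in treated and 71 in untreated A375-S cells. It was thus near or at the limit of detection in both treated libraries. In A375-R, with 2 counts in the treated library, the log2 drug ratio was -5.28 (-8.65 to -3.70). In A375-S it was at least 12.0-fold lower with encorafenib, against the floor of 3 counts.

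CEMIP and HAPLN1 act on hyaluronan, the long sugar chain of the extracellular matrix: CEMIP takes part in its breakdown, and HAPLN1 is the link protein that ties proteoglycans to it. CEMIP had 2 counts in treated and 96 in untreated A375-R cells, and 0 in treated and 135 in untreated A375-S cells. Its log2 drug ratio in A375-R was -5.23 (-8.61 to -3.65). In treated A375-S cells it was 22.8-fold lower against the floor of 3 counts, and at least 18.3-fold lower by the counting interval. CEMIP shares 224 exon bases with MESD on the opposite strand, and the sources do not say whether the counting used strand. MESD had 37 counts in treated and 31 in untreated A375-R cells, and 21 in treated and 45 in untreated A375-S cells, so it was present in the 2 libraries in which CEMIP was at 2 or 0. HAPLN1 had 5 counts in treated and 127 in untreated A375-R cells, and 6 in treated and 361 in untreated A375-S cells. Both treated libraries held few counts, and the untreated A375-S library was the highest of the 4. Its log2 drug ratio was -4.49 (-6.27 to -3.37) in A375-R and -4.85 (-6.39 to -3.79) in A375-S.

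CDCP1 is a transmembrane glycoprotein that SRC family kinases phosphorylate, and SLC20A1 is a sodium-coupled phosphate importer that also serves gibbon ape leukaemia virus as its receptor. CDCP1 had 1 count in treated and 51 in untreated A375-R cells, and 2 in treated and 58 in untreated A375-S cells. Its log2 drug ratio was -5.06 (-10.96 to -3.09) in A375-R and -3.66 (-6.96 to -1.96) in A375-S, wide intervals that come from the few treated counts. SLC20A1 was better measured. It had 25 counts in treated and 248 in untreated A375-R cells, and 14 in treated and 293 in untreated A375-S cells. The log2 drug ratio was -3.24 (-3.93 to -2.67) in A375-R and -3.37 (-4.30 to -2.64) in A375-S, close to each other. A pseudogene entry of SLC20A1 in the table, SLC20A1P3, had 0 counts in all 4 libraries.

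FERMT1 encodes kindlin-1, which binds integrin tails and helps to activate them. It had 8 counts in treated and 108 in untreated A375-R cells, and 1 in treated and 26 in untreated A375-S cells. Treated A375-R cells thus had fewer counts than untreated A375-S cells. The log2 drug ratio was -3.63 (-4.96 to -2.68) in A375-R and -3.32 (-9.08 to -1.11) in A375-S.

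AKAP12 is a scaffold that holds protein kinase A and protein kinase C near the plasma membrane. It had 44 counts in treated and 553 in untreated A375-R cells, and 74 in treated and 786 in untreated A375-S cells. It kept the most counts of the 10 genes in treated A375-S cells. The log2 drug ratio was -3.60 (-4.09 to -3.17) in A375-R and -2.42 (-2.79 to -2.08) in A375-S, 2 intervals that do not overlap.

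SYTL5, synaptotagmin-like 5, binds RAB27 and takes part in vesicle traffic. It had 17 counts in treated and 103 in untreated A375-R cells, and 3 in treated and 263 in untreated A375-S cells. Both A375-R libraries lay between those of A375-S, whose treated library was the lowest and untreated library the highest. The log2 drug ratio was -2.52 (-3.39 to -1.81) in A375-R and -5.32 (-7.76 to -3.91) in A375-S.

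**Figure D1:**
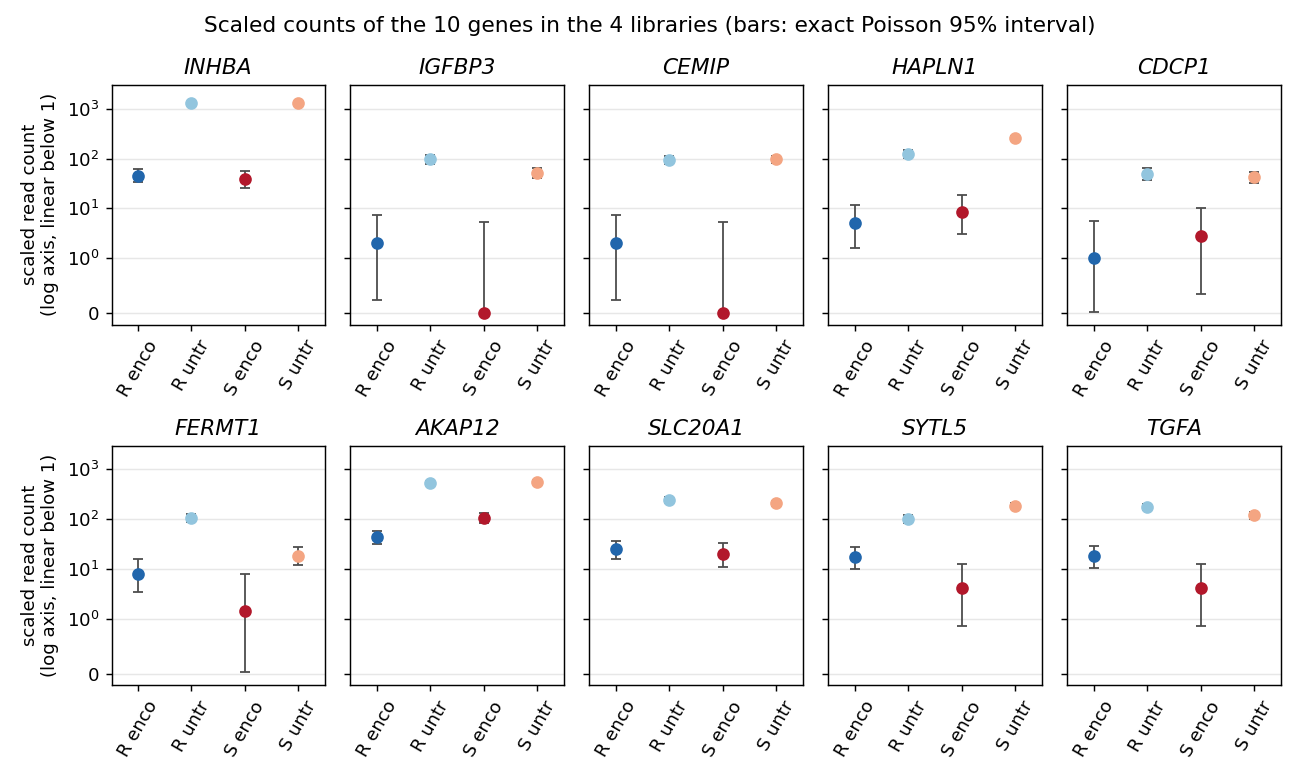
Scaled read count of each of the 10 genes (y axis, logarithmic and linear below 1) in the 4 libraries (x axis: R, A375-R; S, A375-S; enco, 10 nM encorafenib; untr, untreated), with exact Poisson 95% intervals that cover counting error only. In each line the encorafenib library lies below the untreated one for all 10 genes, and IGFBP3 and CEMIP stand at 0 in treated A375-S cells.

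All 10 genes lay lower beyond 2-fold in A375-R, meaning that the whole interval lay at or below -1 in log2, where 1.52% of the 7916 protein-coding genes tested were lower and 1.16% higher by that measure. All 10 were also lower beyond 2-fold in A375-S, where 2.48% of the tested genes were lower and 2.15% higher. Since the genes were selected on the drug effect, nothing is read from these counts. The median log2 drug ratio of the 10 genes was -4.06 in A375-R and -4.76 in A375-S, or -4.09 in A375-S with IGFBP3 and CEMIP set to their ratio against 3 counts. Over all tested protein-coding genes the medians were -0.02 in A375-R and -0.09 in A375-S. Together the 10 genes took 0.0544% of the protein-coding counts in treated A375-R cells (exact 95% interval 0.0465% to 0.0633%), against 0.880% in untreated ones (0.849% to 0.913%). In A375-S they took 0.0602% in treated cells (0.0503% to 0.0715%), against 0.904% in untreated ones (0.876% to 0.932%). The share in untreated cells was 16.2 times that in treated cells in A375-R and 15.0 times in A375-S. Without INHBA these ratios were 12.1 in A375-R and 10.4 in A375-S, the other 9 genes being chosen on the same drug effect.

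**Figure D2:**
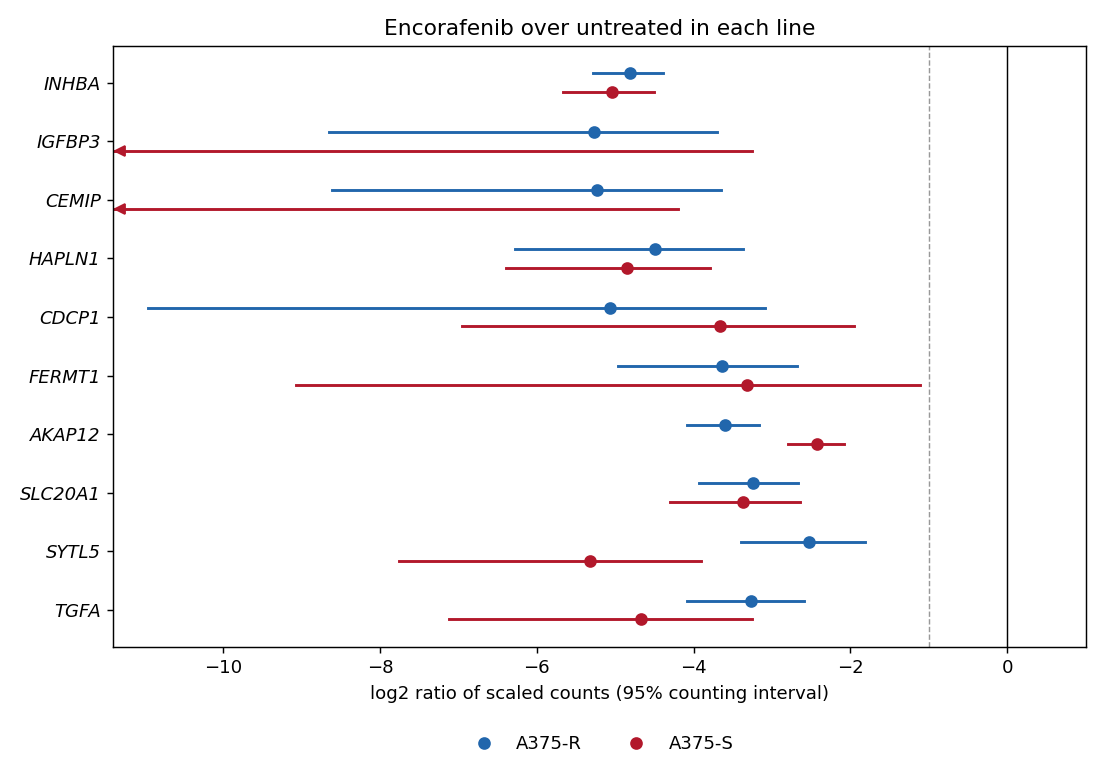
Log2 ratio of scaled counts, encorafenib over untreated (x axis), for each gene in A375-R (upper line of each pair) and A375-S (lower line), with 95% counting intervals and a dashed line at -1. Arrows without a point mark IGFBP3 and CEMIP in A375-S, whose treated library had 0 counts; every interval lies below -1, and those of AKAP12 and SYTL5 do not overlap between the lines.

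Lower beyond 2-fold in both lines were 68 of the 7916 tested genes, which are 56.7% of the 120 lower in A375-R and 34.7% of the 196 lower in A375-S. Over all tested genes, 1.52% were lower in A375-R and 2.48% in A375-S. The 68 are the 10 genes and 58 others. The 2 drug contrasts use separate libraries, but the 10 genes were chosen on them. Ordered by the weaker of the 2 bounds, INHBA, CEMIP, HAPLN1, IGFBP3, SLC20A1 and TGFA stand at ranks 1 to 6, AKAP12 at 13, CDCP1 at 17, SYTL5 at 21 and FERMT1 at 61. The choice has no numeric threshold. The genes outside it that stand next after rank 6 are CKAP2L, FAM107B, HMGA1, IER3, SERPINE2 and TRAF1. MT2A stands just above FERMT1, with a weaker bound of -1.14 against -1.11 for FERMT1, and RAMP1 just below it with -1.07. These neighbours were picked for their rank.

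Counts per kilobase of exon set levels side by side between genes only roughly. The lengths merge all annotated exons of a gene. Whether counts follow length in libraries made with a small RNA kit was not tested. On that scale INHBA had 5.45 scaled counts per kb in treated and 154 in untreated A375-R cells, and 4.61 in treated and 153 in untreated A375-S cells. Among 7729 genes with a length it held rank 2209 in treated and 71 in untreated A375-R cells, and rank 2564 in treated and 68 in untreated A375-S cells. AKAP12 was the next of the 10 in both untreated libraries, with 61.9 scaled counts per kb in A375-R and 64.5 in A375-S. In treated A375-R cells INHBA, AKAP12 and SLC20A1 were close, with 5.45, 5.06 and 4.51 scaled counts per kb. In treated A375-S cells AKAP12 was the highest of the 10, with 12.0 scaled counts per kb and rank 851. The lowest of the 10 was CDCP1 in untreated A375-R cells, with 7.66 scaled counts per kb, and FERMT1 in untreated A375-S cells, with 3.48. The median over all genes with a length was 2.88 scaled counts per kb in treated and 2.93 in untreated A375-R cells, and 2.87 in treated and 2.94 in untreated A375-S cells. All 10 genes were above that median in both untreated libraries. In treated cells 5 of them were above it in A375-R (INHBA, AKAP12, SLC20A1, SYTL5 and TGFA) and 3 in A375-S (INHBA, AKAP12 and SLC20A1). The genes were chosen for a fall from untreated to treated cells, so nothing is read from these positions.

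By median, the ratios between the lines lay nearer to 0 than the drug ratios. The genes were chosen on the drug ratios, so nothing is read from that. In untreated cells 1 of the 10 genes was higher in A375-R beyond 2-fold, against 1.01% of all tested genes, and 0 were lower, against 0.808%. That gene was FERMT1, with 108 counts in A375-R and 26 in A375-S, a log2 ratio of 2.47 (1.87 to 3.18). IGFBP3, at 0.92 (0.47 to 1.39), and TGFA, at 0.56 (0.25 to 0.87), were also higher in A375-R beyond counting error. HAPLN1, at -1.06 (-1.36 to -0.77), and SYTL5, at -0.90 (-1.25 to -0.57), were lower. The intervals of the other 5 held 0, and that of INHBA was the narrowest, at 0.01 (-0.09 to 0.11). Over all 7916 tested genes the interval lay above 0 for 808 and below 0 for 764. The median of the 10 ratios was 0.11, against -0.03 over all tested genes. These ratios share their libraries with the drug ratios on which the genes were chosen.

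With encorafenib in both lines, 0 of the 10 genes differed beyond 2-fold, where 0.682% of the tested genes were higher in A375-R and 0.493% lower. The genes were chosen on ratios that use these libraries, and low treated counts leave wide intervals, so nothing is read from that count. FERMT1, for example, had a log2 ratio of 2.16 (-0.39 to 7.98). AKAP12 was lower in A375-R, with 44 counts against 74 in A375-S, a log2 ratio of -1.23 (-1.82 to -0.69). SYTL5, at 1.89 (0.22 to 4.42), and TGFA, at 1.97 (0.32 to 4.50), were higher in A375-R beyond counting error, from 17 and 18 counts in A375-R against 3 each in A375-S. Over all 7916 tested genes the interval lay above 0 for 634 and below 0 for 525. For IGFBP3 and CEMIP, with 2 counts in A375-R and 0 in A375-S, no fold is given. The median over the 8 genes counted in both treated libraries was 0.29, and over all tested genes it was 0.07. Scaled to the total of the gene tables, which moved the median of all tested genes to 0.85, the ratio became 2.63 for SYTL5 and 2.71 for TGFA, both then beyond 2-fold, and -0.43 for AKAP12.

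**Figure D3:**
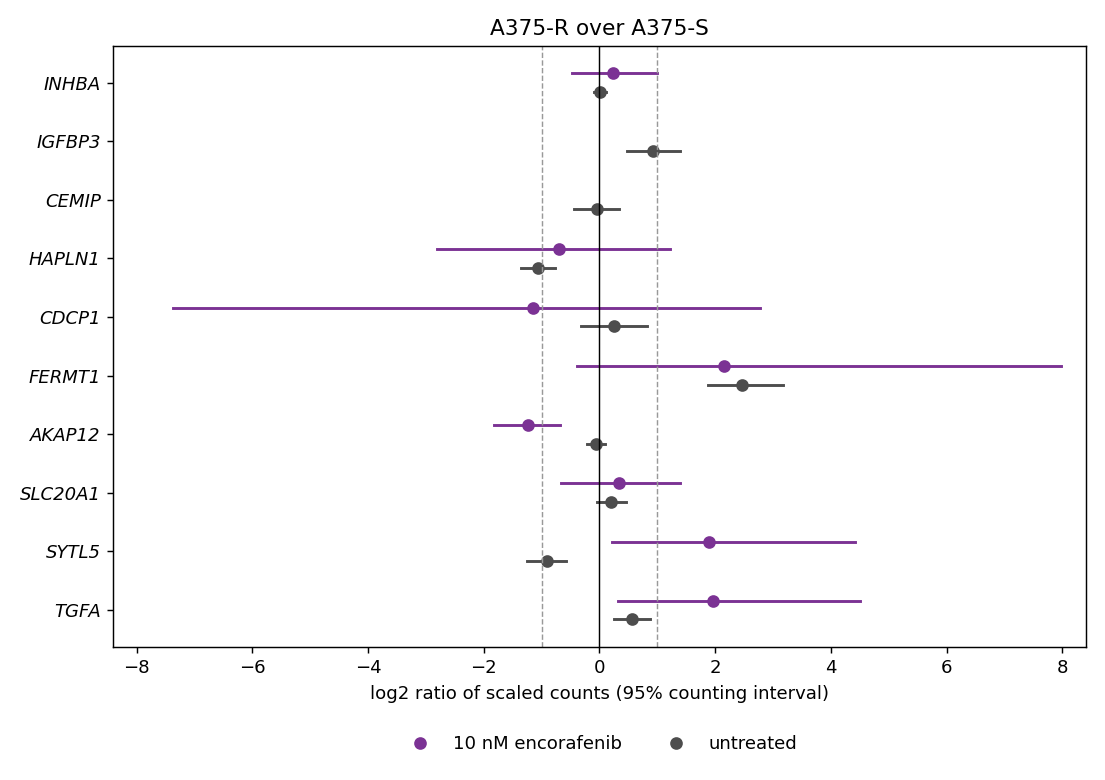
Log2 ratio of scaled counts, A375-R over A375-S (x axis), for each gene with 10 nM encorafenib (upper line of each pair) and in untreated cells (lower line), with 95% counting intervals and dashed lines at -1 and 1. IGFBP3 and CEMIP have no encorafenib ratio because the A375-S library had 0 counts; FERMT1 in untreated cells, at 2.47, is the only gene whose interval lies beyond a dashed line.

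For 2 of the 10 genes the drug ratio itself differed between the lines beyond counting error. SYTL5 differed by 2.79 in log2, A375-R minus A375-S (1.10 to 4.48), as its drug ratio lay nearer to 0 in A375-R. AKAP12 differed by -1.17 (-1.73 to -0.62), the other way round. The intervals of the other 8 held 0, which does not show that the lines responded alike: for TGFA the interval reached 3.09 and for INHBA 0.92. Over all 7916 genes the interval lay above 0 for 6.62% and below 0 for 5.90%. The median difference was 0.08 over all tested genes. Which intervals excluded 0 changed with the scaling. Scaled to the gene-table totals, the difference of AKAP12 was -0.47 (-1.03 to 0.09), which held 0. Those of INHBA, at 0.93 (0.24 to 1.62), and TGFA, at 2.05 (0.37 to 3.72), then lay above 0, as did that of SYTL5, at 3.43 (1.74 to 5.12).

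The promoter windows differed widely in base composition. Over 35116 RefSeq promoter windows of the same length the median G+C content was 58% and the median number of CpG dinucleotides 11. INHBA, whose window is printed above, had 42.8% G+C and 1 CpG, and SYTL5 at its first start 36% and 0 CpG. CEMIP had 74.4% and 28 CpG, IGFBP3 76% and 32, and SLC20A1 80% and 37. A TATA box was present in INHBA, 11 to 6 bases before the listed start, and in CEMIP, 30 to 25 bases before it, against 10.7% of all windows. Of the 9 genes, 4 held an ETS core (IGFBP3, CDCP1, AKAP12 and TGFA), a motif of 14.5% of all windows, but AKAP12, SYTL5 and TGFA had more than 1 window each to hold a match. An AP-1 match stood in 1 of the 9, in SYTL5 at 236 to 230 bases before its first start, and in 6.57% of all windows. The first start of AKAP12 had a CArG box at 81 to 72 bases, found in 1.16% of all windows, with an E-box at 93 to 88 bases and an ETS core at 178 to 173. GC boxes were found in 6 of the 9 genes and in 42.6% of all windows, E-boxes in 2 and in 6.34%, TEAD sites in 2 and in 11.9%, and the cyclic AMP element in 0 and in 1.65%. A match says that the letters are there, and no match only that they are not in these windows.

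**Figure D4:**
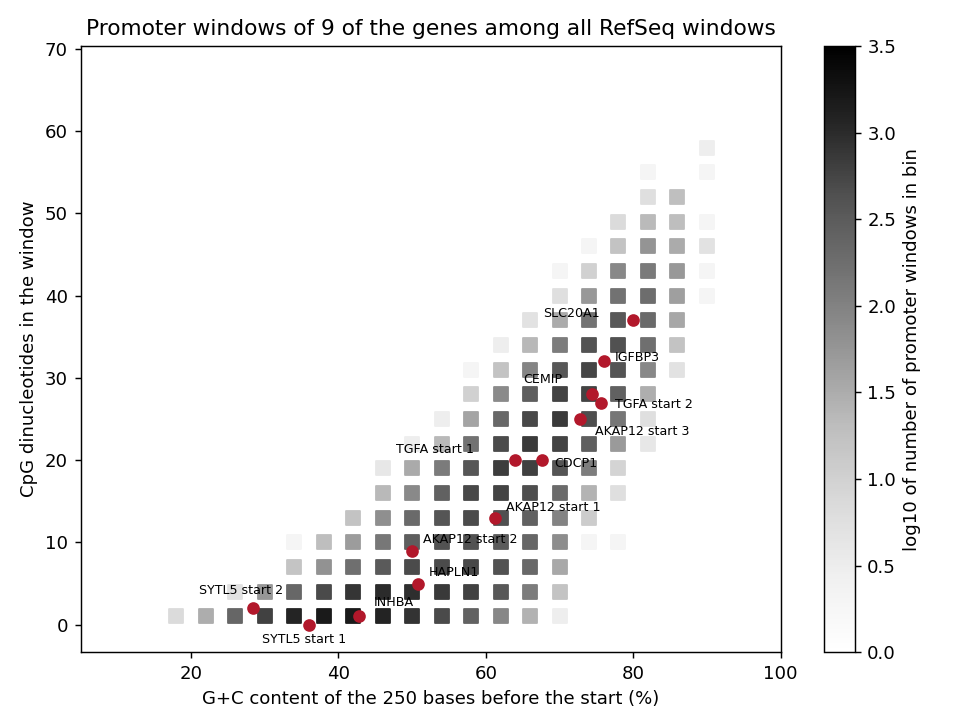
G+C content (x axis, percent) and number of CpG dinucleotides (y axis) of the 250 bases before each start, for 13 windows of 9 of the genes (red points) over the number of all RefSeq windows in each bin (grey, log10 scale). The red points run from SYTL5 with 0 CpG to SLC20A1 with 37, and lie across much of the band of grey bins.

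The genes around each of the 10 were described from lists of their pathways, chosen with results of these data known, and counted without the 10 genes themselves. For each list count below, the shares over all tested genes were 1.52% lower and 1.16% higher beyond 2-fold in A375-R. In A375-S they were 2.48% lower and 2.15% higher. Among 11 tested genes of the activin and TGF-beta pathway, mostly ligands, inhibitors, receptors and SMADs, 1 was lower beyond 2-fold in each line and 0 were higher. That gene was FST, follistatin, which binds and blocks activin. It had 5 counts in treated and 69 in untreated A375-R cells, and 7 in treated and 67 in untreated A375-S cells. Its log2 drug ratio was -3.62 (-5.41 to -2.45) in A375-R and -2.22 (-3.65 to -1.16) in A375-S. The other activin chain INHBB had 0 counts in every library. SMAD3, an effector of activin signals, had 10 counts in treated and 20 in untreated A375-R cells, and 8 in treated and 46 in untreated A375-S cells. Its interval held 0 in A375-R, at -0.93 (-2.22 to 0.20), and lay below 0 in A375-S, at -1.50 (-2.84 to -0.45).

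Among 11 other tested genes of the insulin-like growth factor system, 2 were lower in A375-R and 1 was higher in A375-S beyond 2-fold. IRS2, an adaptor below the insulin and IGF receptors, had 217 counts in treated and 125 in untreated A375-R cells, a log2 ratio of 0.83 (0.51 to 1.17). In A375-S it had 282 in treated and 172 in untreated cells, at 1.69 (1.42 to 1.98). STC1, which inhibits the protease PAPPA, had 16 counts in treated and 111 in untreated A375-R cells, at -2.72 (-3.61 to -1.99), and 4 in treated and 21 in untreated A375-S cells, at -1.34 (-3.41 to 0.16). PAPPA, which cuts IGF-binding proteins, had 3 in treated and 23 in untreated A375-R cells, at -2.71 (-5.28 to -1.17), and 2 in treated and 22 in untreated A375-S cells, at -2.29 (-5.61 to -0.45). STC1 was also higher in untreated A375-R than in untreated A375-S cells, with 111 counts against 21, at 2.81 (2.17 to 3.60). Of the binding proteins next to IGFBP3, IGFBP2 did not reach 10 counts, and IGFBP4, IGFBP6 and IGFBP7 had drug intervals that held 0 in both lines. IGFBP5 had 4 counts in treated and 17 in untreated A375-R cells, at -1.92 (-4.08 to -0.43), and an interval that held 0 in A375-S. None of the 4 tested was lower beyond 2-fold in either line.

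Among 8 other tested genes of the EGF family and its regulators, 2 were lower beyond 2-fold in A375-R and 0 were beyond 2-fold in A375-S. AREG, amphiregulin, is a ligand of the same receptor as TGFA. It had 0 counts in treated and 30 in untreated A375-R cells, and 0 in treated and 9 in untreated A375-S cells. In A375-R it was 9.72-fold lower against the floor of 3 counts, and the upper end of its log2 interval was -2.89. AREG was also higher in untreated A375-R than in untreated A375-S cells, at 2.10 (1.07 to 3.44). ERRFI1, a feedback inhibitor of the receptor, had 16 counts in treated and 103 in untreated A375-R cells, at -2.61 (-3.51 to -1.88). In A375-S it had 10 in treated and 74 in untreated cells, at -1.87 (-3.03 to -0.95). The receptor EGFR itself was below 10 counts in every library, as were the ligands EREG and NRG1, and HBEGF had drug intervals that held 0 in both lines.

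Among 7 other tested genes of hyaluronan synthesis, breakdown and binding, 1 was lower in both lines and 1 was higher in A375-S beyond 2-fold. CEMIP2, a transmembrane relative of CEMIP, had 15 counts in treated and 85 in untreated A375-R cells, and 16 in treated and 128 in untreated A375-S cells. Its log2 drug ratio was -2.42 (-3.36 to -1.66) in A375-R and -2.00 (-2.87 to -1.26) in A375-S. VCAN, versican, a matrix proteoglycan that binds hyaluronan, had 9 counts in treated and 16 in untreated A375-R cells, an interval that held 0, and 14 in treated and 4 in untreated A375-S cells, at 2.59 (1.12 to 4.85). CD44, the main hyaluronan receptor, was well counted. It had 255 counts in treated and 212 in untreated A375-R cells, at 0.31 (0.04 to 0.58), and 190 in treated and 188 in untreated A375-S cells, at 0.99 (0.70 to 1.29). The synthase HAS2 had at most 1 count in a library.

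Among 15 other tested genes of focal adhesions, 1 was higher in A375-R and 2 were lower in A375-S beyond 2-fold. ACTN1, alpha-actinin, had 43 counts in treated and 113 in untreated A375-R cells, at -1.34 (-1.89 to -0.83), and 10 in treated and 169 in untreated A375-S cells, at -3.05 (-4.18 to -2.18). PXN, paxillin, had 33 in treated and 70 in untreated A375-R cells, at -1.03 (-1.69 to -0.43), and 8 in treated and 112 in untreated A375-S cells, at -2.77 (-4.07 to -1.80). TNS3, tensin 3, was higher in A375-R, with 29 counts in treated and 5 in untreated cells, at 2.46 (1.19 to 4.30). In A375-S it had 17 in treated and 8 in untreated cells, at 1.98 (0.78 to 3.49), higher beyond counting error but not beyond 2-fold. FERMT2, the kindlin that most adherent cells express, had drug intervals that held 0 in both lines.

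Around the remaining genes, at most 1 gene of a list passed 2-fold with the drug in either line. On the list around CDCP1, of SRC family kinases, proteases and other surface and signalling genes, 12 were tested. Of these, 1 was lower in A375-R, where 1.52% of all tested genes were. It was the collagenase MMP1, with 1 count in treated and 16 in untreated A375-R cells, at -3.42 (-9.35 to -1.27), and 0 in both A375-S libraries. Of 14 tested scaffolds and subunits of protein kinase A, 1 was lower in A375-S, where 2.48% of all tested genes were. It was the regulatory subunit PRKAR1A, with 64 counts in treated and 135 in untreated A375-R cells, at -1.03 (-1.49 to -0.60), and 42 in treated and 273 in untreated A375-S cells, at -1.71 (-2.22 to -1.25). The scaffold AKAP1 had intervals that held 0 in both lines, and AKAP9 had 0.20 (-0.18 to 0.58) in A375-R and -0.39 (-0.76 to -0.03) in A375-S. Of the 4 tested genes on the list around SYTL5 (MYO5A, RAB3D, RAB38 and SYTL2) and of 4 tested phosphate transporters, 0 were beyond 2-fold in either line. SYTL2 had drug intervals that held 0 in both lines, and SYTL4 and RAB27A did not reach 10 counts. SLC20A2, the relative of SLC20A1, had 11 counts in treated and 1 in untreated A375-R cells, at 2.97 (0.72 to 8.93), and 1 in treated and 8 in untreated A375-S cells, an interval that held 0.

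Of 16 tested genes known as outputs of ERK signalling, 5 were lower beyond 2-fold in A375-R, where 1.52% of all tested genes were, and 8 in A375-S, where 2.48% were. None of the 16 was higher beyond 2-fold in either line, and the intervals of DUSP5, EPHA2 and SPRED1 held 0 in both. Their median log2 drug ratio was -1.41 in A375-R and -1.86 in A375-S, nearer to 0 than the medians of the 10 genes, which were chosen for low ratios. SPRY4, a feedback inhibitor, had 4 counts in treated and 46 in untreated A375-R cells, at -3.33 (-5.42 to -2.03), and 0 in treated and 112 in untreated A375-S cells. In A375-S it was 18.9-fold lower against the floor of 3 counts, and the upper end of its log2 interval was -3.92. IER3, an immediate early gene, had 23 counts in treated and 161 in untreated A375-R cells, at -2.74 (-3.46 to -2.13), and 5 in treated and 207 in untreated A375-S cells, at -4.30 (-6.03 to -3.14). EGR1, an immediate early transcription factor, had 26 in treated and 95 in untreated A375-R cells, at -1.81 (-2.51 to -1.19), and 3 in treated and 139 in untreated A375-S cells, at -4.40 (-6.85 to -2.98). The ETS factor ETV4 had 7 counts in treated and 29 in untreated A375-R cells, at -1.94 (-3.45 to -0.79), and ETV5 had 5 in treated and 14 in untreated ones, at -1.36 (-3.27 to 0.11), an interval that held 0. Both had 0 counts in treated A375-S cells, against 65 and 30 in untreated ones, 11.0-fold and 5.07-fold lower against the floor of 3 counts. The upper ends of their log2 intervals in A375-S were -3.12 and -1.95. Cyclin D1, CCND1, had 46 in treated and 189 in untreated A375-R cells, at -1.99 (-2.50 to -1.53), and 7 in treated and 106 in untreated A375-S cells, at -2.88 (-4.29 to -1.85).

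The genes whose 4 counts most resembled the mean profile of the 10 were found by the root mean square distance of centred log2 scaled counts over the 4 libraries, among 1789 other coding genes that reached 50 counts in 1 library. In order they were CXCL8, TRAF1, IER3, PXYLP1, HMGA2, ABHD17C, KIAA0040, SH2B3, TOP2A and CSPG4, with distances of 0.37 to 0.82, against a median of 2.17 over all candidates. The 10 genes themselves lay at 0.34 (INHBA) to 1.14 (CEMIP), so several genes outside the choice are nearer to its mean than some of its members. CXCL8, the chemokine interleukin-8, had 3 counts in treated and 84 in untreated A375-R cells, and 1 in treated and 47 in untreated A375-S cells. TRAF1, an adaptor of TNF receptors, had 4 in treated and 50 in untreated A375-R cells, and 2 in treated and 64 in untreated A375-S cells. HMGA2, a chromatin protein, had 7 in treated and 90 in untreated A375-R cells, and 3 in treated and 61 in untreated A375-S cells. In all 3 the treated library was the lower one in both lines, which follows from picking them by nearness to the mean profile of the 10. TOP2A, a topoisomerase of dividing cells, had a log2 drug ratio of -2.47 in A375-R and -4.38 in A375-S. CSPG4, a surface proteoglycan of melanoma, had -1.91 in A375-R and -4.12 in A375-S.

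**Figure D5:**
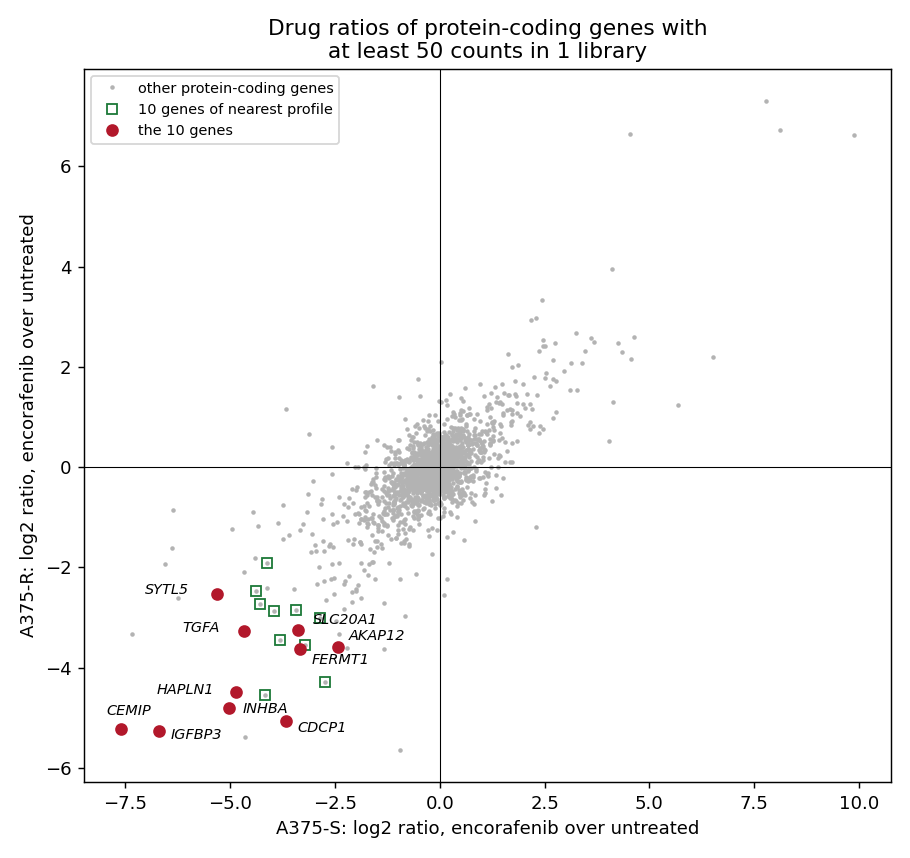
Log2 ratio of scaled counts, encorafenib over untreated, in A375-R (y axis) and A375-S (x axis), for coding genes that reached 50 counts in 1 library; red points are the 10 genes, green squares the 10 genes of nearest profile and grey points all others. The 10 genes lie in the lower left; the positions of IGFBP3 and CEMIP on the x axis rest on 0 counts and the prior count of 0.5.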

How the data were processed

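Raw read counts per gene were deposited by the authors as 1 table per library, with symbol, Entrez identifier and biotype and no normalization, per the file headers. The submitters' processing notes name hg19 as the build. For the alignment and counting programs and the use of strand, nothing is given in the sources used here. Libraries were made with a small RNA kit, per the labels' protocols, and the microRNA tables were not used here.

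Counts were scaled by TMM factors (edgeR 4.0.16, R 4.3.3) over entries with at least 10 counts in at least 1 library. Log2 ratios used a prior count of 0.5 and exact conditional (Clopper-Pearson) 95% intervals (scipy 1.17.1). Beyond 2-fold means a log2 bound of 1 or more away from 0. The difference of drug ratios has a delta-method interval. These intervals, and the floor of 3 counts, cover counting error only, as PCR copies of a molecule could not be told from separate ones. With 1 library per group, the spread between cultures was not observed. The ratio and its interval were tested on simulated Poisson counts for the A375-S drug contrast, with changes placed only in well-counted genes. The interval of the difference of drug ratios was not simulated. Exon lengths came from GENCODE, matched by symbol for 97.6% of the 7916 genes, and promoters from RefSeq GRCh38.p14, matched by symbol; no coordinates were carried between builds.

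The 10 genes and all lists were chosen with earlier results of these data known. All 10 genes are named, with the list genes beyond 2-fold in any of the 4 comparisons (at most 6 per list), fixed family members and the 10 genes of nearest profile. SMAD3, the melanocyte markers and ERK outputs within 2-fold, and the genes named as neighbours by rank were chosen after their values were seen. Alternatives were DESeq2 1.42.0 size factors, gene-table and protein-coding totals, TMM over protein-coding entries, no filter, a minimum of 50 counts and a prior count of 2.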

Additional observations from a re-analysis of the deposited data

How the results depend on the processing

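Of 280 ratios of single members of the 10 genes under 7 other settings, 2 newly passed 2-fold, and none that lay beyond 2-fold lost that or changed sign. Another 2, both between the treated lines with gene-table totals, left their reported intervals: INHBA (1.04, against 0.24) and AKAP12 (-0.43, against -1.23). The sign changed for 4 ratios between the lines, all with reported intervals that held 0: with gene-table totals HAPLN1 treated (0.05, against -0.70), CEMIP untreated (0.06, against -0.05) and AKAP12 untreated (0.04, against -0.06), and with protein-coding totals or no filter INHBA untreated (-0.02 and -0.0030, against 0.01). The response difference of FERMT1, whose interval held 0, also changed sign with gene-table totals (0.23, against -0.31), and 3 of 10 differences then excluded 0 (2 as reported). All 10 stayed lower beyond 2-fold in both lines under each of those settings. The prior count does not enter the intervals, so a prior count of 2 could not change which ratios lay beyond 2-fold. Scaled to the gene-table totals, the median of all tested genes became 0.10 for the drug ratio in A375-R, -0.66 for that in A375-S and 0.85 between the treated lines. Under that scaling 534 genes were lower and 90 higher in A375-S (196 and 170 as reported), with 11 and 0 pathway-list genes (5 and 2), and between the treated lines 6 were lower and 386 higher (39 and 54), with 3 list genes higher (0) and 2 of the 10 genes higher (0). The gene-table total is mostly not protein-coding. With a minimum of 50 counts, 75 genes were lower and 43 higher with drug in A375-R (120 and 92), with 4 list genes lower (7) and 0 higher (1), and 109 and 83 in A375-S, with 1 list gene higher (2). Between untreated lines the same minimum gave 21 lower and 40 higher (64 and 80), with 1 list gene higher (3), and between treated lines 14 and 21. Fewer genes are tested there. Exact conditional intervals of the response difference, an alternative chosen after seeing the data, gave 1.07 to 5.35 for SYTL5 and -1.78 to -0.60 for AKAP12. Counts of 0 to 3 in treated A375-S cells limit the ratios of IGFBP3, CEMIP, FERMT1, CDCP1, SYTL5 and TGFA. No paired analysis was possible because each group has 1 library.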
